A study of Mus musculus with 2 samples.

Results

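A CtBP2 chromatin immunoprecipitation (ChIP) had 45.5% of its reads in 5 stretches of the mouse genome that together span 90 kb, and its input had 32.7%. They were 5 of the 24 deep blocks of these libraries, where a deep block is a run of joined 10 kb bins with at least 4200 input reads, 100 times the median bin. In mm9 coordinates they lay at chr2:98500001-98510000, chr9:3000001-3040000 (the proximal chr9 block), chr9:35110001-35120000 (the distal chr9 block), chr12:3100001-3120000 and chr13:77570001-77580000. They were chosen by their share ratio, the share of ChIP reads in a block over its share of input reads. The choice took blocks near the ratio of the deepest block, the proximal chr9 block, which was 1.436. Ratios of the 5 ran from 1.319 in the chr2 block to 1.446 in the distal chr9 block. Because it chose the blocks, the share ratio is given as a description, with no test. All 450 windows of 200 bp in the blocks were kept, without a filter, and 760 windows of the genome, 217 of them in these blocks, held 100 or more input reads.

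The ChIP library came from an immunoprecipitation with an anti-CtBP2 antibody (Active Motif 61261), and the input came from chromatin that was not precipitated. Both were made from MIN6, a mouse insulinoma line that serves as a stand-in for pancreatic beta cells, which is 1 tumour-derived line and not islet tissue. The cells were fixed with formaldehyde and their chromatin was sheared by sonication. With 1 library per group, no test between them was possible, and the intervals below are 95% intervals for counting error only, since amplified reads are not independent molecules. The deposited data held 34890624 ChIP and 20896067 input reads, which spanned 33 to 38 bp on the genome. Outside the deep blocks, a start position (a coordinate and strand where a read begins) held a mean of 2.22 ChIP and 1.11 input reads, and 49.98% of ChIP and 49.95% of input reads lay on the plus strand.

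CtBP2 is an NAD(H)-binding co-repressor of transcription, brought to chromatin by DNA-binding partners. Mouse chromosomes carry long tandem arrays of satellite repeats around their centromeres, packed as heterochromatin, and an assembled genome holds only a small part of these arrays. Short reads from the many copies of such a repeat can therefore pile up on the few copies that the assembly shows. Whether the 5 blocks hold such repeats was not established here, because no sequence of the build of these reads was used. No gene annotation of that build was used either.

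Except in the proximal chr9 block, nearly all reads of a block lay in a small part of it. The proximal chr9 block held 9566509 ChIP reads (27.4% of the library) and 3988923 input reads (19.1%), the chr2 block 5434561 ChIP reads (15.6%) and 2467762 input reads (11.8%). The distal chr9 block held 503028 ChIP and 208279 input reads, the chr12 block 236919 and 99091, and the chr13 block 149918 and 62442. In the last 3 blocks, 2 windows per block held at least 99% of the reads of either library. In the chr2 block the same share took 12 of 50 windows in ChIP and 14 in input. In the proximal chr9 block the same share took 180 of 200 windows in ChIP and 181 in input, so that block was deep along almost its whole length.

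At base resolution the deep parts had sharp ends. Positions with 20 or more input reads, joined when within 100 bp, formed 9 dense stretches, a rule chosen after the values were seen. In the proximal chr9 block they ran from the block's first base to 3027315 and from 3027438 to 3038400. The distal chr9 block had a single stretch of 380 bp (chr9:35112798-35113177), the chr12 block one of 257 bp (chr12:3109871-3110127) and the chr13 block one of 151 bp (chr13:77578168-77578318). These 3 short stretches held 99.98%, 99.95% and 99.94% of the ChIP reads of their blocks, and 99.96%, 99.81% and 99.8% of the input reads. The chr12 stretch lay across the border of the 2 bins of 10 kb that make up its block. At 16 of the 18 ends of the stretches, the outermost dense minus-strand start lay 30 to 38 bp after the outermost plus-strand start, close to the length of 1 read. At the other two ends, the left one of chr2:98505054-98505379 and the right one of chr9:3000001-3027315, the distance was 19 and 20 bp.

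Beyond the blocks, depth fell to about that of an ordinary bin, whose median was 42 input reads. The 10 bins of 10 kb that flank the blocks held 4 to 129 ChIP reads and 8 to 70 input reads each. The highest of these, before the proximal chr9 block, held 129 ChIP and 70 input reads, all of them on the plus strand and starting no earlier than 2999997, within a few bases of the block. The lowest input count, 8, stood after that block. Share ratios on these few reads were 1.10 and 1.12 beside the proximal chr9 block, with intervals that included equal shares. Beside the other blocks they ran from 0.0614 to 0.590. In the distal chr9, chr12 and chr13 blocks, a window with under 100 input reads held at most 4 ChIP and 8 input reads. No ChIP read at all fell in 20 windows of the chr2 block, 6 of the proximal chr9 block, 41 of the distal chr9 block, 74 of the chr12 block and 38 of the chr13 block, against 13, 6, 29, 36 and 17 windows with no input read.

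**Figure D1:**
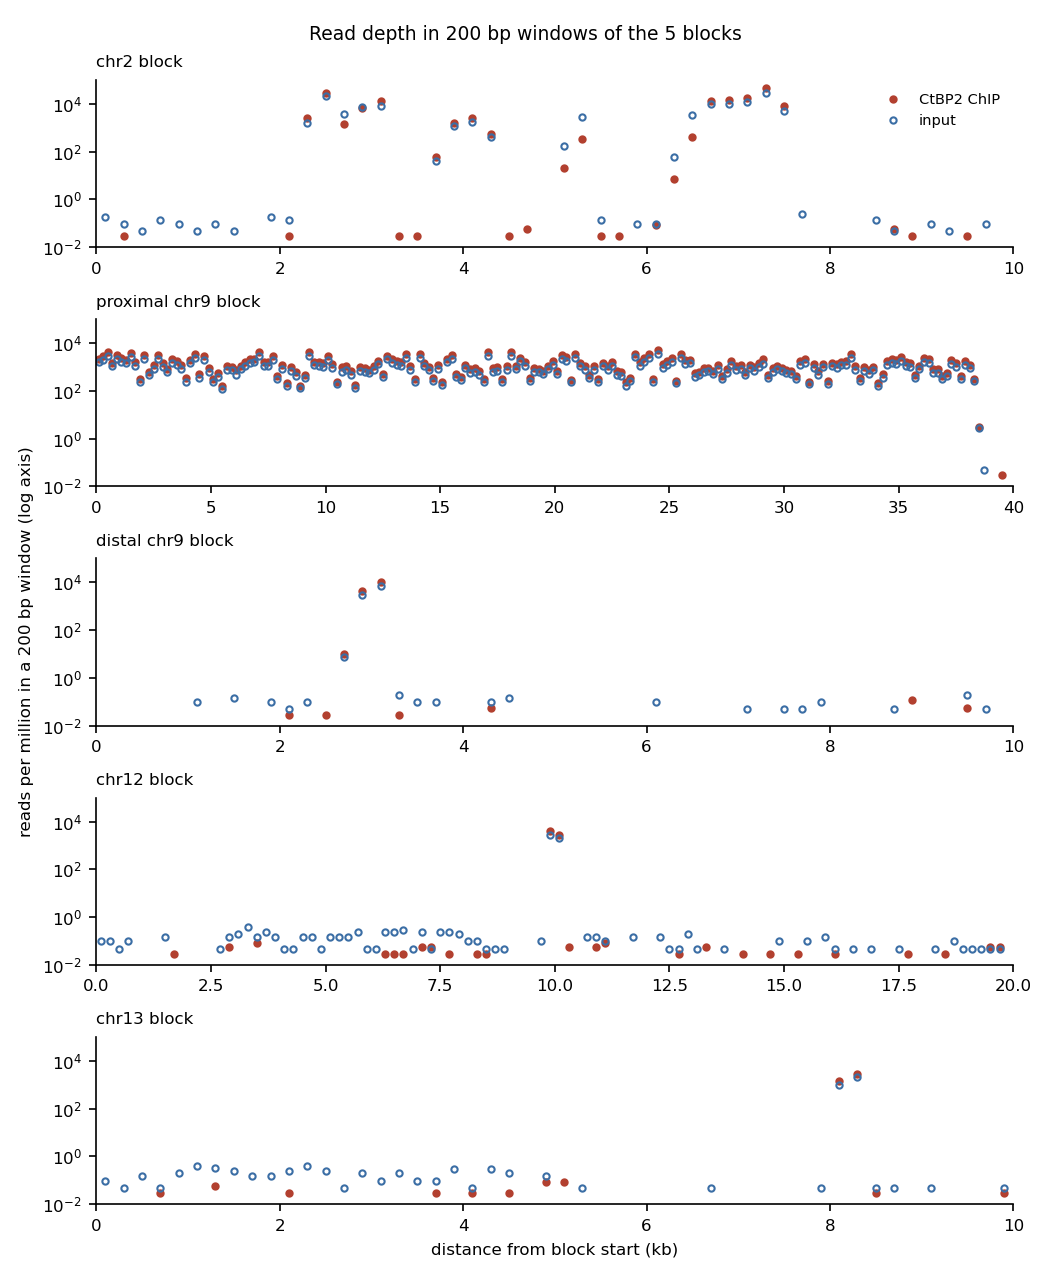
Reads per window of 200 bp, scaled to library size (log axis), by distance from the block start in kb, for CtBP2 ChIP (filled) and input (open). Windows with no read are not drawn. Deep windows fill the first 38.4 kb of the proximal chr9 block and a smaller part of each other block. They lie at the same places in both libraries.

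The share ratio was 1.394 (1.393 to 1.395) over the 5 blocks together. By block it was 1.436 (1.435 to 1.438) in the proximal chr9 block, 1.446 (1.439 to 1.454) in the distal chr9 block, 1.432 (1.421 to 1.443) in the chr12 block, 1.438 (1.425 to 1.451) in the chr13 block and 1.319 (1.317 to 1.321) in the chr2 block. Of the other deep blocks, the one just outside the choice, on chromosome 4 at chr4:70030001-70040000, had a ratio of 1.26. The distal chr9, chr12 and chr13 blocks and the proximal chr9 block had overlapping intervals, apart from the pair of chr9 blocks, whose intervals did not overlap. With all reads kept, the chr2 block lay below the other 4. The order differed with 1 read per position, where the ratio was 1.57 in the proximal chr9 block and 1.42 in the distal chr9 block. It was 1.42 in the chr2 block, 1.20 in the chr12 block and 1.12 in the chr13 block. This setting counts occupied positions, whose number is capped in a short stretch, so it does not measure a share of reads. In all but the proximal chr9 block, ChIP occupied fewer positions than input, as in the chr13 block (257 against 337). Those ratios exceed 1 because ChIP occupied fewer positions in the whole library (8476058 against 12494235).

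Across the genome, 13.6% of the 760 windows with 100 or more input reads had a ChIP share at least 1.5 times the input share, and 44.3% had an input share at least 1.5 times the ChIP share. In the 5 blocks, 4 of 217 such windows (1.84%) were past the limit upwards and 5 (2.30%) downwards. Since the same contrast chose the blocks, nothing is read from these shares. Of the 4 higher windows, 3 were in the chr2 block and 1 in the proximal chr9 block. All 5 lower ones were in the chr2 block.

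The proximal chr9 block was even in share ratio but not in depth. It had 5538 to 182030 ChIP reads per window among windows with 100 or more input reads. Its most-read window, chr9:3024401-3024600, held 182030 ChIP and 75892 input reads, a ratio of 1.44. Among its 192 windows with 100 or more input reads the ratio had a median of 1.43, its highest value was 1.53 at chr9:3006001-3006200 (25674 ChIP and 10066 input reads) and its lowest 1.25 at chr9:3033201-3033400 (11541 and 5519). In its 39 bins of 1 kb the ratio stayed between 1.32 and 1.47. Windows with more input reads tended to have a higher ratio, with Spearman's rho of 0.587 across the 192 windows, which share the same 2 libraries and so are not independent.

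The 3 short stretches had ratios near that of the proximal chr9 block. This follows from the choice of the blocks by their ratio, since the stretches hold nearly all reads of their blocks. The most-read window of the distal chr9 block, chr9:35113001-35113200, held 352420 ChIP and 144515 input reads, a ratio of 1.46. The 2 deep windows of the chr12 block, chr12:3109801-3110000 and chr12:3110001-3110200, held 138696 and 98187 ChIP reads, against 56231 and 42711 input reads, with ratios of 1.48 and 1.38. Those of the chr13 block, chr13:77578001-77578200 and chr13:77578201-77578400, held 48252 and 101651 ChIP reads, against 19523 and 42822 input reads, with ratios of 1.48 and 1.42. All 50 bp bins with 100 or more input reads in these 3 blocks and in the proximal chr9 block had ratios between 1.10 and 1.75.

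The chr2 block, in contrast, was a mosaic of 2 kinds of sequence position. Of its 57 bins of 50 bp with 100 or more input reads, 36 had ratios of 1.20 to 1.67, 21 had ratios of 0.106 to 0.126, and 0 lay between 0.2 and 1. Those limits were set with the values known. The high bins (1800 bp) held 5373332 ChIP and 2157696 input reads, a ratio of 1.491, and the low bins (1050 bp) held 61180 and 309996, a ratio of 0.118. Low bins thus carried 1.13% of the ChIP and 12.6% of the input reads of these bins, and without them the block's ratio was 1.491 in place of 1.319.

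The bins of each kind were contiguous. From the left, a high run at chr2:98502351-98502650 (ratio 1.44) was followed directly by a low run at chr2:98502651-98502950 (0.121) and a high run at chr2:98502951-98503150 (1.51). A separate high run stood at chr2:98503751-98504250 (1.38) and a separate low run at chr2:98505001-98505400 (0.115). The last dense stretch opened with a low run at chr2:98506351-98506700 (0.117) and went on as the longest high run, chr2:98506701-98507500 (1.51). The ratio therefore moved by more than 10 times between neighbouring 50 bp bins at 3 places, with no bin at a middle level.

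The extreme windows of the block lay in runs of either kind. Its most-read window, chr2:98507201-98507400, held 1579164 ChIP reads, 29.1% of the block's, and 612714 input reads, 24.8% of the block's, and it had the highest ratio, 1.54. Its lowest, chr2:98505201-98505400, held 11725 ChIP and 61105 input reads, a ratio of 0.115. The window chr2:98502801-98503000 holds both kinds of bin and had an intermediate ratio of 0.924, with 242170 ChIP and 156931 input reads.

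**Figure D2:**
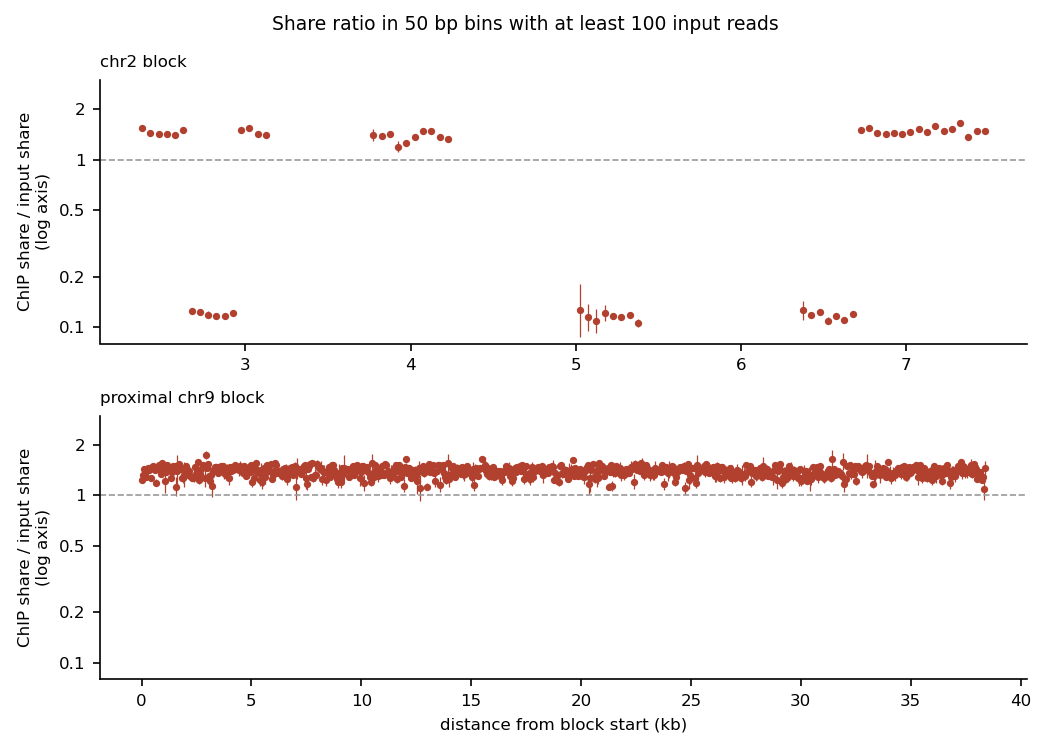
ChIP share over input share (log axis) in 50 bp bins with 100 or more input reads, by distance from the block start in kb, for the chr2 block and the proximal chr9 block. Bars are 95% counting intervals and the dashed line marks equal shares. Bins of the chr2 block sit at 1.20 to 1.67 or at 0.106 to 0.126, and those of the proximal chr9 block at 1.10 to 1.75.

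Low and high bins of the chr2 block differed in depth per start position. Since the bins were parted by their ratio, the contrast in ChIP depth in part restates that split. The high bins held a mean of 1784 ChIP and 721 input reads per occupied position, the low bins 41.4 and 190. Both kinds were covered densely, with reads starting at 83.7% of high positions in ChIP and 83.2% in input, and at 70.3% of low positions in ChIP and 77.8% in input. Strand balance was near even in both, with 51.0% plus-strand reads in the high bins of either library, and 50.2% in ChIP and 51.4% in input in the low bins.

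Reads were stacked on the same start positions far more than outside the deep blocks. A start position that held any read held a mean of 1206 ChIP and 528 input reads in the chr2 block, 142 and 62.8 in the proximal chr9 block, 705 and 282 in the distal chr9 block, 484 and 165 in the chr12 block and 583 and 185 in the chr13 block. Across the 19 other deep blocks it held 1.37 to 192 ChIP and 1.69 to 177 input reads, with 2 of the 19 above the lowest of the 5 blocks in ChIP and 5 of the 19 in input. Stacking was thus not confined to the 5 blocks. Depth per position is bound up with the depth that defines a deep block, so these values describe the blocks and were not tested.

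The mean hid an uneven spread over positions. Medians per occupied position were 126 ChIP and 164 input reads in the chr2 block, 34 and 17 in the proximal chr9 block, 408.5 and 163 in the distal chr9 block, 243 and 45 in the chr12 block and 210 and 13 in the chr13 block. Means and medians were not scaled to library size, and they include sparse positions outside the dense stretches. In the chr13 block, reads started at 257 positions in ChIP and 337 in input. Only 192 positions there held 20 or more reads of both libraries together, so its medians do not compare the libraries at like positions. In the chr2 block the median was thus lower in ChIP than in input although the mean was higher in ChIP, and in the proximal chr9 block reads started at 84.4% of all positions in ChIP and 79.4% in input. The single most-read position of the 5 blocks, 98502477 on the plus strand of chromosome 2, held 46694 ChIP and 21172 input reads. Outside the deep blocks the most-read position held 1024 ChIP and 902 input reads.

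In the other blocks the top position was not always the same in both libraries. In the proximal chr9 block, position 3024457 on the plus strand led in ChIP with 5089 ChIP and 2369 input reads, and 3017150 on the plus strand led in input with 4881 ChIP and 2409 input reads. In the distal chr9 block the leading positions were 35113021 on the plus strand, with 8075 ChIP and 2427 input reads (ratio 1.99), and 35113060 on the minus strand, with 6400 and 2950 (1.30). One position led in both libraries in the chr12 block, 3110041 on the minus strand with 3992 ChIP and 2183 input reads (1.10), and in the chr13 block, 77578186 on the plus strand with 5049 and 2384 (1.27). Single positions therefore varied around the level of their block by more than the windows did.

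Both libraries used largely the same positions. Over positions with 20 or more reads, Pearson's r of log2 reads in ChIP and input was 0.961 in the proximal chr9 block, 0.972 in the distal chr9 block, 0.978 in the chr12 block, 0.983 in the chr13 block and 0.790 in the chr2 block with its low and high bins. The number of positions ranged from 192 in the chr13 block to 45322 in the proximal chr9 block. Of the 100 most-read positions of a block, 81, 73, 83, 85 and 96 were shared between the libraries in the chr2, proximal chr9, distal chr9, chr12 and chr13 blocks. These values describe 1 pair of libraries made from the same line and aligned to the same genome, and carry no p.

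Strand balance, which was not used to choose the blocks, was close to even in each block as a whole. Plus-strand reads made up 51.0% of ChIP and 51.1% of input reads in the chr2 block, 49.8% and 50.4% in the proximal chr9 block, 51.0% and 50.1% in the distal chr9 block, 51.1% and 51.1% in the chr12 block and 48.1% and 47.5% in the chr13 block. Of the 19 other deep blocks, 5 had under 20% or over 80% of their ChIP reads on the plus strand. The rest of the 19 had 42.6% to 55.5%, so a near even balance was not particular to the 5 blocks.

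Within the blocks, single windows leaned strongly to 1 strand, and to the same strand in both libraries. In the chr13 block, plus-strand reads made up almost the whole of chr13:77578001-77578200 in both libraries, and 23.5% of ChIP and 23.6% of input reads in chr13:77578201-77578400. In the proximal chr9 block the share ran from 24.8% to 74.4% over windows in ChIP and from 26.4% to 74.8% in input. The median difference between the libraries in a window was at most 1.24 percentage points in any block.

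The largest difference in strand share was in the chr2 block. In chr2:98502601-98502800, 24.1% of ChIP and 48.1% of input reads were on the plus strand, and in chr2:98502801-98503000, 96.8% and 76.2%. Both windows lie where the low run meets a high run. Apart from these 2 windows the libraries followed each other.

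**Figure D3:**
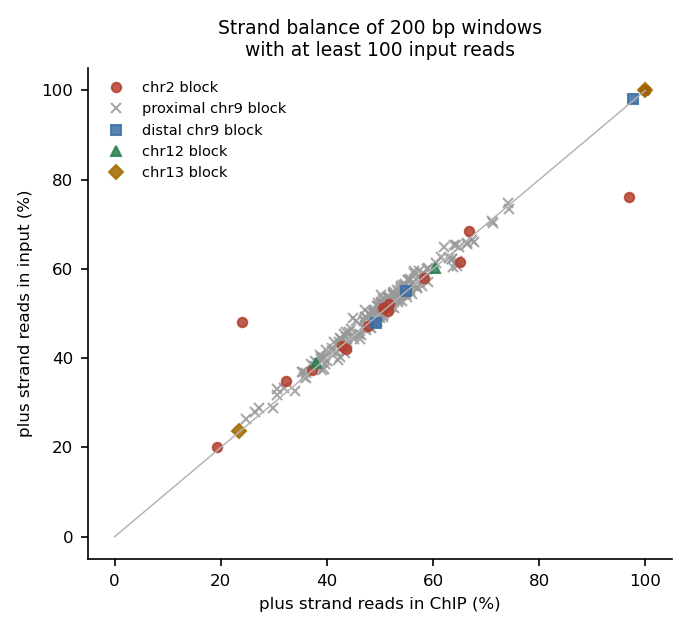
Plus-strand share of input reads (vertical, %) against that of ChIP reads (horizontal, %) in the 217 windows of 200 bp with 100 or more input reads, by block. The line marks equal shares. Windows spread from 19.2% to 100% in ChIP but lie near the line, apart from 2 windows of the chr2 block.

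The spacing of read starts repeated in the proximal chr9 block. With a local running mean subtracted, the autocorrelation of log2(1 + reads) along a strand was highest at a distance of 234 bp in both libraries, at 0.138 in ChIP and 0.143 in input. The lowest values of the curve were -0.242 at 110 bp in ChIP and -0.229 at 111 bp in input. At 117 bp it was -0.203 and -0.192, beside a small local peak at 118 bp (-0.199 and -0.187). It peaked again at 468 bp (0.101 and 0.0998), 702 bp (0.104 and 0.103) and 935 bp (0.0743 and 0.0756). Peaks near further multiples faded to about 0 by 2106 bp. Peaks also stood outside this series of multiples. The highest was at 877 bp, at 0.113 in ChIP and 0.110 in input. Smaller local peaks recurred in both libraries between the multiples, among them 176 bp (0.0366 and 0.0379), 292 bp (0.0246 and 0.0334), 410 bp (0.0270 and 0.0308) and 644 bp (0.0551 and 0.0559). Whether they reflect a shorter spacing was not tested.

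Each of the 2 dense stretches of the block gave 234 bp by itself, at 0.116 in ChIP and 0.117 in input in the first stretch and at 0.201 and 0.216 in the second. The consensus unit of the mouse major satellite is 234 bp long, which is given as background, since the sequence of the block was not read. Without the running mean, the measure was highest at 60 bp, the shortest distance searched, in all 5 blocks and both libraries. On reads without the log, the proximal chr9 block gave 234 bp in both libraries. The running mean was added after the values were seen. With it, the highest value in each of the 19 other deep blocks ranged from 0.0195 to 0.280 in ChIP and from 0.0262 to 0.319 in input, at various distances. These ranges take in the proximal chr9 block, so a peak of its height was not particular to it.

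**Figure D4:**
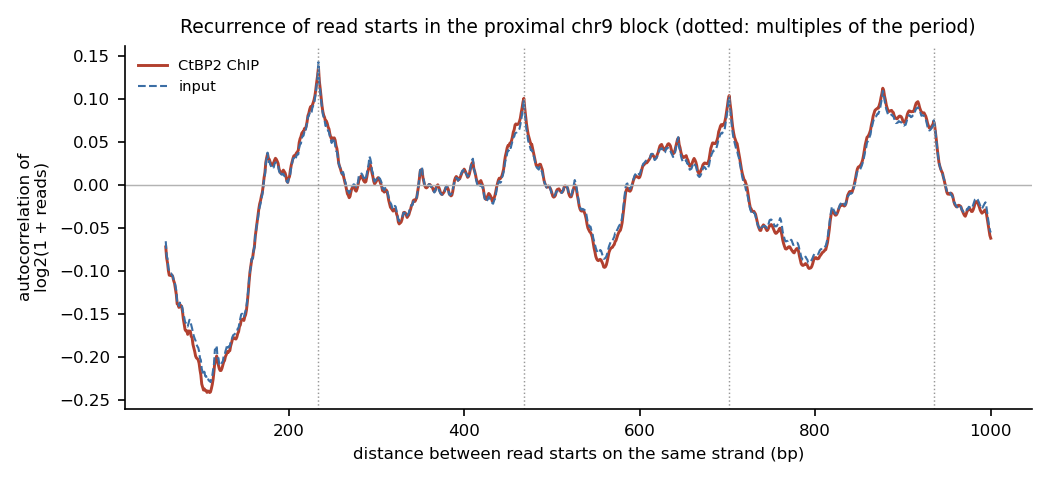
Autocorrelation of log2(1 + reads), after subtraction of a running mean, against the distance between read starts on the same strand (bp) in the proximal chr9 block, for CtBP2 ChIP (solid) and input (dashed). Dotted lines mark 234, 468, 702 and 935 bp, where both curves peak together.

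Folded at exactly 234 bp, the reads showed no fixed phase along the block. Peaks at multiples 4 to 8 lay at 233.7 to 233.9 bp per multiple, so a fold at 234 bp can drift over many units. A gap between the 2 dense stretches can also shift it. Whether a slightly shorter unit keeps its phase was not tested. Reads summed by position within a 234 bp unit gave profiles that ran together in ChIP and input, with r of 0.980 on the plus and 0.968 on the minus strand over the positions of the unit. The profile of the first part of the block and that of the second, divided at the midpoint, had r of only 0.0945 in ChIP and 0.0783 in input on the plus strand, and 0.133 and 0.105 on the minus strand.

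No period could be read in the 3 short stretches, of 151 to 380 bp, which are shorter than 2 such units. In the chr2 block the autocorrelation at 234 bp was negative in both stretches long enough to test, at -0.115 in ChIP and -0.152 in input in the first and -0.0912 and -0.105 in the last. Its highest values there stood at 274 bp in ChIP, against 327 bp in input, in the first stretch, and at 514 bp in ChIP, against 151 bp in input, in the last. On reads without the log, the highest value over the whole chr2 block stood at 513 bp in both libraries.

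Reads of unusual length on the genome were rare, but took a larger share in the blocks than outside the deep blocks. In the 5 blocks, 0.934% to 1.19% of ChIP and 0.911% to 1.25% of input reads spanned a length other than 35 or 36 bp, as reads with small insertions, deletions or trimmed ends do. Outside the deep blocks the shares were 0.117% of ChIP and 0.260% of input reads. The 19 other deep blocks had 0% to 11.0% of such reads in ChIP, with a median of 0.629%, and 0% to 13.5% in input, with a median of 0.722%, ranges that take in the 5 blocks. In the low bins of the chr2 block they were 0.427% and 0.469%, and in the high bins 1.06% and 1.13%.

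Set against the other deep blocks, the 5 blocks held most of the reads of all deep blocks. Their narrow band of ratios was fixed by the choice of the blocks, so nothing is read from it. The other 19 blocks spanned 200 kb and held 1.07% of ChIP and 1.21% of input reads, with ratios of 0.0258 to 4.57. The difference in ratio was not tested, since it chose the blocks.

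**Figure D5:**
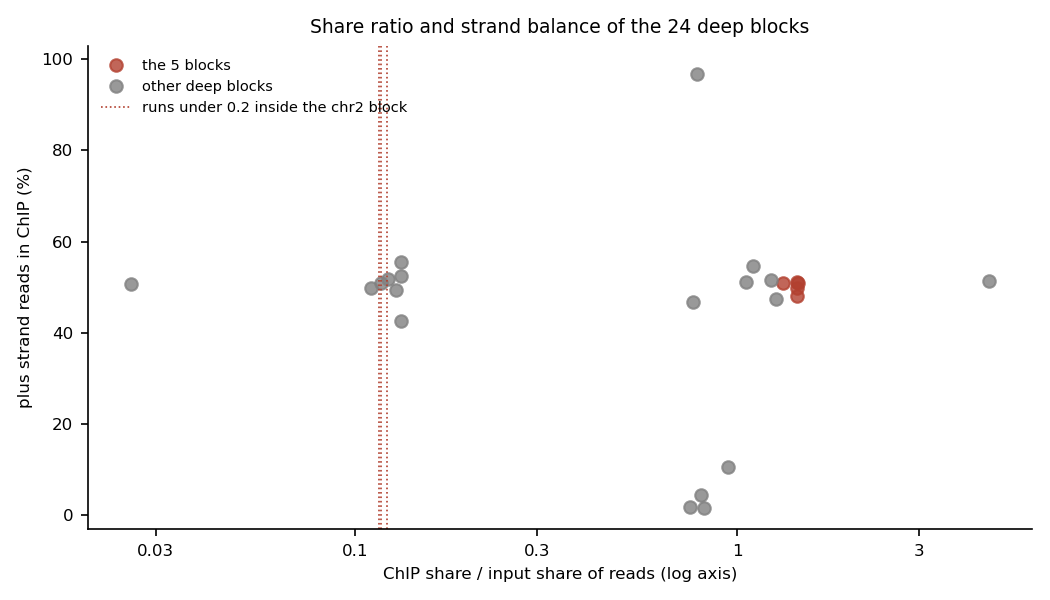
Plus-strand share of ChIP reads (vertical, %) against the ChIP share over input share (horizontal, log axis) for the 5 blocks and the 19 other deep blocks. Dotted lines mark the 3 low runs inside the chr2 block, at 0.115 to 0.121, among 7 other deep blocks at 0.110 to 0.132.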

How the data were processed

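Aligned reads of 1 CtBP2 ChIP and 1 input library were used as deposited, 1 line per read with chromosome, start, end and strand. The name column of each deposited line is 1, so its sum is a raw read count. The other columns used are deposited coordinates in bp, and the deposited score column is 0 throughout, so no mapping quality is known. Per the submitters' processing notes, BWA (no version), SAMtools 0.1.19, bedtools 2.17.0 and mm9 were used. Filters and the placement of reads with several matches are not given in the sources used here. If reads with many matches were kept, a block may collect reads from copies elsewhere. A control IgG precipitation was not analysed here.

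Every read was placed at its 5′ end and all repeated reads were kept (34890624 ChIP and 20896067 input reads). Scripts in Python 3.11.15, NumPy 2.4.6, SciPy 1.17.1, pandas 2.3.3 and matplotlib 3.10.9 counted reads in 200 bp windows and 50 bp bins, and were tested on simulated data. The share ratio divides shares of all deposited reads and has a 95% log-scale counting interval, and shares of reads have 95% Wilson intervals. Autocorrelation used log2(1 + reads) per strand over 60 to 600 bp, averaged over strands, with and without a 301 bp running mean subtracted. Named windows are, per block, those with the most ChIP reads and with the highest and lowest ratio among windows with 100 or more input reads, and named positions are those with the most reads per library. The windows at borders of low and high runs in the chr2 block and the second deep windows of the chr12 and chr13 blocks were named after their values were seen. The blocks, windows and measures were chosen with earlier results of these data known. Alternatives were 1 read per position, other totals, 1 strand, no top positions, other windows and limits, and other forms of the autocorrelation. No sequence is printed, since no genome of this build was used.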

Additional observations from a re-analysis of the deposited data

How the results depend on the processing

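No paired analysis was possible because ChIP and input are 1 library each, and no replicate could be left out. No share ratio turned its direction, but the order of the blocks changed. With 1 read per position the ratio compares occupied positions. These were fewer in ChIP than in input in all but the proximal chr9 block, so that setting does not measure a share of reads. The share ratio of the 5 blocks together, 1.394, was 1.551 with 1 read per position, 1.719 against totals outside the deep blocks, 1.390 without the mitochondrial chromosome, 1.391 without the top 1% of positions, 1.383 on the plus and 1.406 on the minus strand, and 1.455 without the low bins of the chr2 block. All these moves exceed counting error, which is small at this depth. By block, the ratio with 1 read per position ranged from 1.12 in the chr13 block to 1.57 in the proximal chr9 block, with the chr2 block, at 1.42, above the chr12 and chr13 blocks. Without its low bins the chr2 block, at 1.491, lay above the other 4. The ratios ranged from 1.63 to 1.78 against totals outside the deep blocks. With 500 bp windows, 2 windows were past 1.5 times upwards and 2 downwards, against 4 and 5. The grid moved by 100 bp gave 4 and 6. The period of the proximal chr9 block was 60 bp, the edge of the search, in both libraries as planned, and 234 bp in both without the log or with the running mean. The plus-strand share of the 5 blocks, 50.2% in ChIP and 50.6% in input, was 49.95% and 49.96% with 1 read per position and 51.8% and 52.2% without the top 1% of positions. Reads per start position, 216 in ChIP and 97.7 in input, were 177 and 80.1 without those positions, with medians of 38 and 19. The causes of these moves were not tested. Depth limits only the 233 windows with under 100 input reads, for which no ratio was read.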

Other observations

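The low runs of the chr2 block had values found in other deep blocks. Of the 19 other deep blocks, 7 had share ratios of 0.110 to 0.132, at both sides of the 0.115 to 0.121 of the 3 low runs, and 1 on chromosome 1 stood at 0.0258. Another 6 had ratios of 0.751 to 0.946, 5 of them with under 20% or over 80% of ChIP reads on the plus strand, and 4 had 1.06 to 1.26 with near even strands. A block on chromosome 17 had 4.57. No deep block had a ratio between 0.132 and 0.751, and above 0.751 the ratios ran on without a clear gap as far as 1.446. The cause was not tested.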
